A study of Mus musculus with 24 samples.

Results

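Primary mouse myoblasts (PMs) at day 0, transfected with siRNAs against both Tead1 and Tead4 (siTead1/4), were compared with PMs transfected with a control siRNA (siControl). The members were chosen by the sample labels alone, as the raw count columns of the 2 siTead1/4 libraries and the 2 siControl libraries of PMs at day 0, which are 4 of the 24 libraries of the series. All genes of the table were considered, and 16144 of its 28109 genes had enough reads to be tested. The remaining libraries hold the same pair of siRNAs in PMs at days 3 and 6 and in C2C12 cells, an established mouse myoblast line, at days 0, 3 and 6.

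PMs came from the muscles of C57BL/6 mice of 3 to 4 weeks and were grown on matrigel in medium with 20% foetal calf serum. The labels name no genetic change in these cells, and all of them received siRNA. The siRNAs were pools of several duplexes per target, and the labels name the control as siLuc, that is luciferase. According to the methods of the study, RNA was taken 24 hours after transfection and day 0 precedes the switch to medium with 2% horse serum. The cells at day 0 therefore had an siRNA for 1 day and had not been placed in differentiation medium. The siControl cultures nevertheless already carried RNA of differentiation genes at this time, with levels given below for Myog and Myh3. The methods of the study speak of biological replicates. The sources used here do not say how many mice were used or whether the 2 replicates came from separate animals. The p-values measure a spread between replicate libraries that is shared over the 12 PM libraries and across genes, and it may be technical.

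Tead proteins are transcription factors that recognise the MCAT element, a short motif first described in promoters of muscle genes. They have no strong activating domain of their own and act with cofactors, among them Yap and Taz, whose entry into the nucleus is held back by the kinases of the Hippo pathway, and the Vestigial-like proteins. In muscle, Tead factors are known for regulating contractile protein genes, and Tead4 is itself a target of the myogenic factor Myod1. Myoblasts divide in serum, leave the cell cycle when serum is withdrawn, and fuse into myotubes that assemble sarcomeres.

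The libraries held 32571583 to 44748721 counts on genes. The log2 levels of the 2 replicates had a Pearson r of 0.996 across genes in either group, and both pairs differed by more than sampling noise. Mitochondrial transcripts took 2.50 to 3.36% of the counts. All 11 genes of a myoblast marker list were detected and their summed level was 6756 and 6851 CPM (counts scaled to a common library size) in siControl and 6122 and 6309 CPM in siTead1/4. Both groups thus carried the markers of the labelled cell type. Single markers of endothelial and Schwann cells were present at a low level. Cdh5 of endothelial cells was at 3.60 and 0.957 CPM in siControl and 5.16 and 1.43 CPM in siTead1/4. Sox10 of Schwann cells was at 1.10 and 0.141 CPM in siControl and 1.42 and 0.216 CPM in siTead1/4. Both were higher in replicate 1 than in replicate 2 of each group and, within a replicate number, in siTead1/4. No gene was called among the tested markers of fibroblasts (10 genes), pericytes and smooth muscle (8), leukocytes (6) and adipocytes (5). Over all genes tested 1.50% rose and 1.10% fell, and at these shares lists of this size would hold few calls or none. Values were higher in siTead1/4 for 8, 5, 1 and 5 of these markers, in the same order. The median log2 fold changes were 0.41, 0.10, −0.20 and 0.64. The summed adipocyte markers stood at 26.1 and 23.1 CPM in siControl and 40.1 and 37.2 CPM in siTead1/4, with the defining marker Lep at 0 in all 4 libraries. Fibroblast markers summed to 103 and 74.6 CPM in siControl and 128 and 80.6 CPM in siTead1/4. Those of pericytes and smooth muscle were not low, at 557 and 515 CPM in siControl and 698 and 562 CPM in siTead1/4. Without Notch3, the most abundant of them, the sums were 264 and 292 CPM in siControl and 333 and 330 CPM in siTead1/4. The part of such cells in the results was not tested.

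Tead4 (ENSMUSG00000030353, chromosome 6, 128174306 to 128250841 in NCBIM37, the mm9 build) was measured at 64.1 and 59.5 CPM in siControl and 13.1 and 10.98 CPM in siTead1/4. The siTead1/4 libraries kept 21.1% and 17.8% of the siControl mean (log2 fold change −2.36, SE 0.17, edgeR adjusted p = 2.6e-04). Tead1 (ENSMUSG00000055320, chromosome 7, 119822832 to 120050319) was at 172 and 151 CPM in siControl and 69.3 and 49.7 CPM in siTead1/4, and 42.9% and 30.8% of the siControl mean remained (log2 fold change −1.44, SE 0.31, edgeR adjusted p = 0.021). The groups did not overlap for either gene, and the labels of the 4 libraries were borne out by both targets. The call for Tead4 was kept without each library in turn. That for Tead1 was lost in each of these 4 fits, with log2 fold changes between −1.70 and −1.22.

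The paralogs that were not targeted did not pass both thresholds. Tead2 was lower, at 149.7 and 139 CPM in siControl and 99.7 and 92.9 CPM in siTead1/4, without passing the threshold for size (log2 fold change −0.58, edgeR adjusted p = 0.032). Tead3 was at 16.6 and 17.2 CPM in siControl and 20.8 and 20.5 CPM in siTead1/4 (log2 fold change 0.29, edgeR adjusted p = 0.43). At the level per kilobase of transcript, Tead2 was the highest of the 4 family members in the siControl libraries, at a mean of 39.0 CPM per kb against 17.2 for Tead4, 14.9 for Tead1 and 5.49 for Tead3. After the silencing it stood at 26.0 CPM per kb, against 3.34 for Tead4 and 5.48 for Tead1. Of the cofactors, Vgll2 was at 58.7 and 53.4 CPM in siControl and 104 and 88.5 CPM in siTead1/4 (log2 fold change 0.78, edgeR adjusted p = 0.032). Vgll4 was at 30.7 and 37.3 CPM in siControl and 52.4 and 52.5 CPM in siTead1/4 (log2 fold change 0.63, edgeR adjusted p = 0.016). Both were higher with no overlap between groups, yet under the size threshold. Yap1 (log2 fold change 0.33, edgeR adjusted p = 0.11), Wwtr1, the gene of Taz (log2 fold change −0.22, edgeR adjusted p = 0.45), and Vgll3 (log2 fold change −0.13, edgeR adjusted p = 0.57) did not pass the test.

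Across all genes, 242 rose (1.50% of those tested) and 178 fell (1.10%) in edgeR's quasi-likelihood test. A gene had to pass an adjusted p of 0.05 and to move by more than 1 on the log2 scale. The counts of called members in the lists below stand against these shares. A list with a single call is not read as a result about the list. The genes that rose were mostly of low abundance. Their median level was 1.40 CPM in the siControl libraries and 4.49 CPM in the siTead1/4 libraries, whereas the genes that fell had a median of 13.5 and 5.36 CPM. Only 79 of the 242 genes that rose had a mean of at least 5 CPM over the 4 libraries, against 108 of the 178 that fell. The median log2 fold change was 1.58 for the former and −1.39 for the latter, and 64 and 36 genes moved by more than 2 on this scale. The groups did not overlap for any of the 420 genes, while over all genes tested the siTead1/4 libraries stood apart above in 27.4% and apart below in 30.8%. Leaving out each library in turn kept the call in all 4 fits for 34 of the genes that rose and 52 of those that fell, and kept the log2 fold change beyond 1 in 195 and 134.

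**Figure D1:**
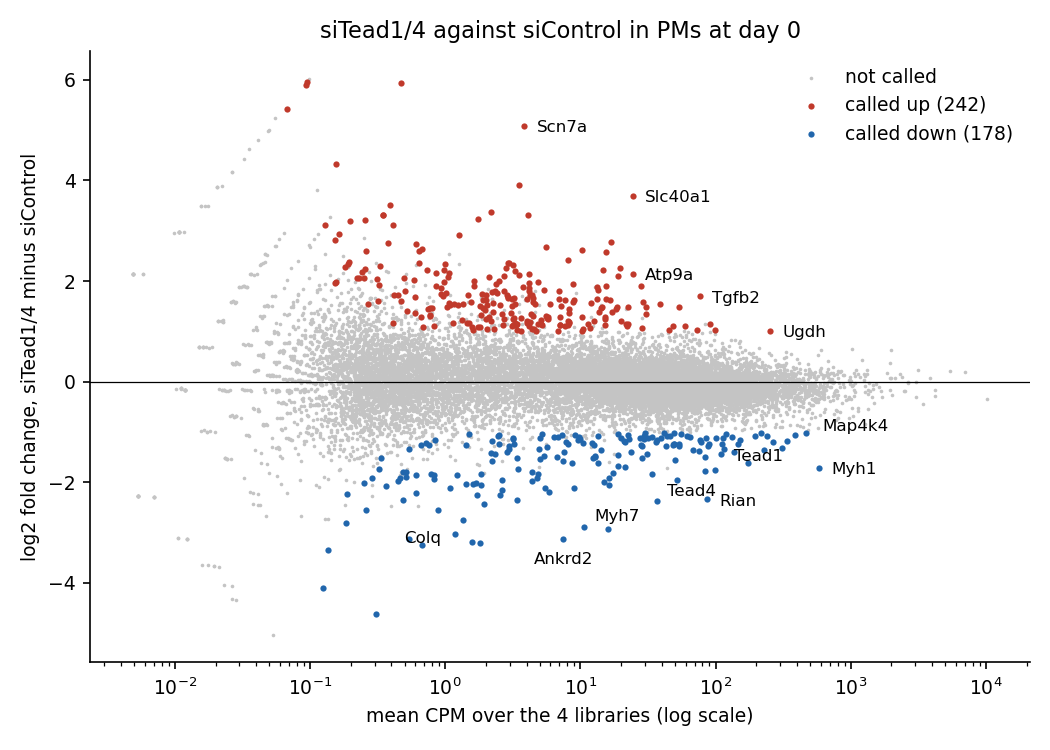
Log2 fold change of siTead1/4 against siControl in PMs at day 0 (y axis) against the mean level over the 4 libraries in CPM (x axis, log scale), 1 point per tested gene. Red points are the 242 genes that rose, which lie mostly at low levels, and blue points the 178 that fell, which reach up to the level of Myh1.

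The largest falls among genes above the 5 CPM floor were led by a component of the muscle Z-disc. Ankrd2, a stretch-responsive ankyrin repeat protein of striated muscle (ENSMUSG00000025172, chromosome 19, 42110528 to 42119600), went from 15.3 and 11.3 to 1.66 and 1.39 CPM (log2 fold change −3.13, SE 0.46, edgeR adjusted p = 0.0040). The siTead1/4 libraries stood far below both siControl libraries. The list of genes of the Z-disc and costamere, the structures that anchor thin filaments and tie them to the membrane, had 32 members tested. Of these 5 fell (15.6%, against 1.10% of all genes) and none rose. The median log2 fold change of the list was −0.65, against −0.01 over all genes tested. Of the 32, 29 had a value below 0 compared with 50.8% of all genes. In RNA from a whole culture, fewer cells that express such genes and less RNA per cell cannot be told apart.

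Fhl1, a LIM protein of sarcomeres, fell from 178 and 129.8 to 54.7 and 36.9 CPM (log2 fold change −1.75, SE 0.21, edgeR adjusted p = 0.0018). Lmcd1, another LIM protein, fell from 26.7 and 21.2 to 7.65 and 4.53 CPM (log2 fold change −1.98, SE 0.24, edgeR adjusted p = 0.0016). Ankrd23, a paralog of Ankrd2, fell from 18.9 and 17.9 to 6.81 and 6.12 CPM (log2 fold change −1.51, SE 0.19, edgeR adjusted p = 0.0021). Abra, an actin-binding protein of striated muscle, was low in all libraries and fell from 2.33 and 4.22 to 0.560 and 0.627 CPM (log2 fold change −2.43, SE 0.29, edgeR adjusted p = 0.0016). The 5 calls of this list were kept without each library in turn. Values of other members lay on the same side without a call, such as Flnc, the muscle filamin (1081 and 918 CPM in siControl and 686 and 534 CPM in siTead1/4, log2 fold change −0.71, edgeR adjusted p = 0.013). Ankrd1, the remaining paralog of Ankrd2, was at 594 and 746 CPM in siControl and 378 and 452 CPM in siTead1/4 (log2 fold change −0.69, edgeR adjusted p = 0.095).

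Genes of the thick filament split by isoform. Of 27 tested members, 5 fell (18.5%, against 1.10% of all genes) and 1 rose (3.70%, against 1.50%), with a median log2 fold change of −0.37. Myh1, a fast myosin heavy chain (ENSMUSG00000056328, chromosome 11, 67013554 to 67038078), was the most abundant gene that fell in the whole comparison, from 826 and 947 to 228 and 316 CPM (log2 fold change −1.71, SE 0.20, edgeR adjusted p = 0.0016). Myh7, the slow heavy chain, fell from 12.4 and 25.2 to 2.05 and 2.98 CPM (log2 fold change −2.88, SE 0.46, edgeR adjusted p = 0.0061). Myh4, a further fast heavy chain, rose from 10.7 and 13.1 to 43.9 and 45.4 CPM (log2 fold change 1.91, SE 0.29, edgeR adjusted p = 0.0048). The siTead1/4 libraries were thus both above the siControl libraries for Myh4 and both below for Myh1 and Myh7. Over the 27 tested members they stood apart below in 15 and above in 5.

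The calls for Myh7 and Myh4 were each kept in 3 of the 4 fits that left out a library, with log2 fold changes between −3.31 and −2.29 for Myh7 and between 1.77 and 2.06 for Myh4. Other heavy chains did not pass. The embryonic Myh3 was at 4107 and 3791 CPM in siControl and 3438 and 2407 CPM in siTead1/4 (log2 fold change −0.43, edgeR adjusted p = 0.26). The perinatal Myh8 was at 605 and 493 CPM in siControl and 325 and 333 CPM in siTead1/4 (log2 fold change −0.74, edgeR adjusted p = 0.053), and Myh2 at 3.47 and 3.91 CPM in siControl and 1.24 and 2.06 CPM in siTead1/4 (log2 fold change −1.14, edgeR adjusted p = 0.095). The heavy chain genes are close paralogs, so reads could be divided between them by the counting, and an antisense gene within the Myh1 span was also called down.

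Among the binding proteins and light chains, Mybph, myosin-binding protein H, fell from 255 and 268 to 84.3 and 86.6 CPM (log2 fold change −1.61, SE 0.11, edgeR adjusted p = 1.8e-04). Mybpc1, the slow myosin-binding protein C, fell from 214 and 205 to 107 and 79.5 CPM (log2 fold change −1.16, SE 0.14, edgeR adjusted p = 0.0016). Myl6b, a myosin light chain, fell from 99.4 and 111 to 45.1 and 49.0 CPM (log2 fold change −1.16, SE 0.24, edgeR adjusted p = 0.016). The call for Mybph was kept without each library in turn, that for Mybpc1 in 3 of the 4 fits and that for Myl6b in none, with log2 fold changes of −1.24 to −1.08. The annotated span of Mybph shares 2009 bases with that of Adora1, which also fell, and the libraries do not keep the strand. In the thin filament list of 20 tested genes, the one call was a rise of cardiac troponin I, Tnni3, at 0.466 and 0.619 CPM in siControl and 1.54 and 1.65 CPM in siTead1/4 (log2 fold change 1.56, edgeR adjusted p = 0.042). Its span overlaps another gene that rose, and its call was lost in each fit without a library (log2 fold changes 1.36 to 1.77).

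**Figure D2:**
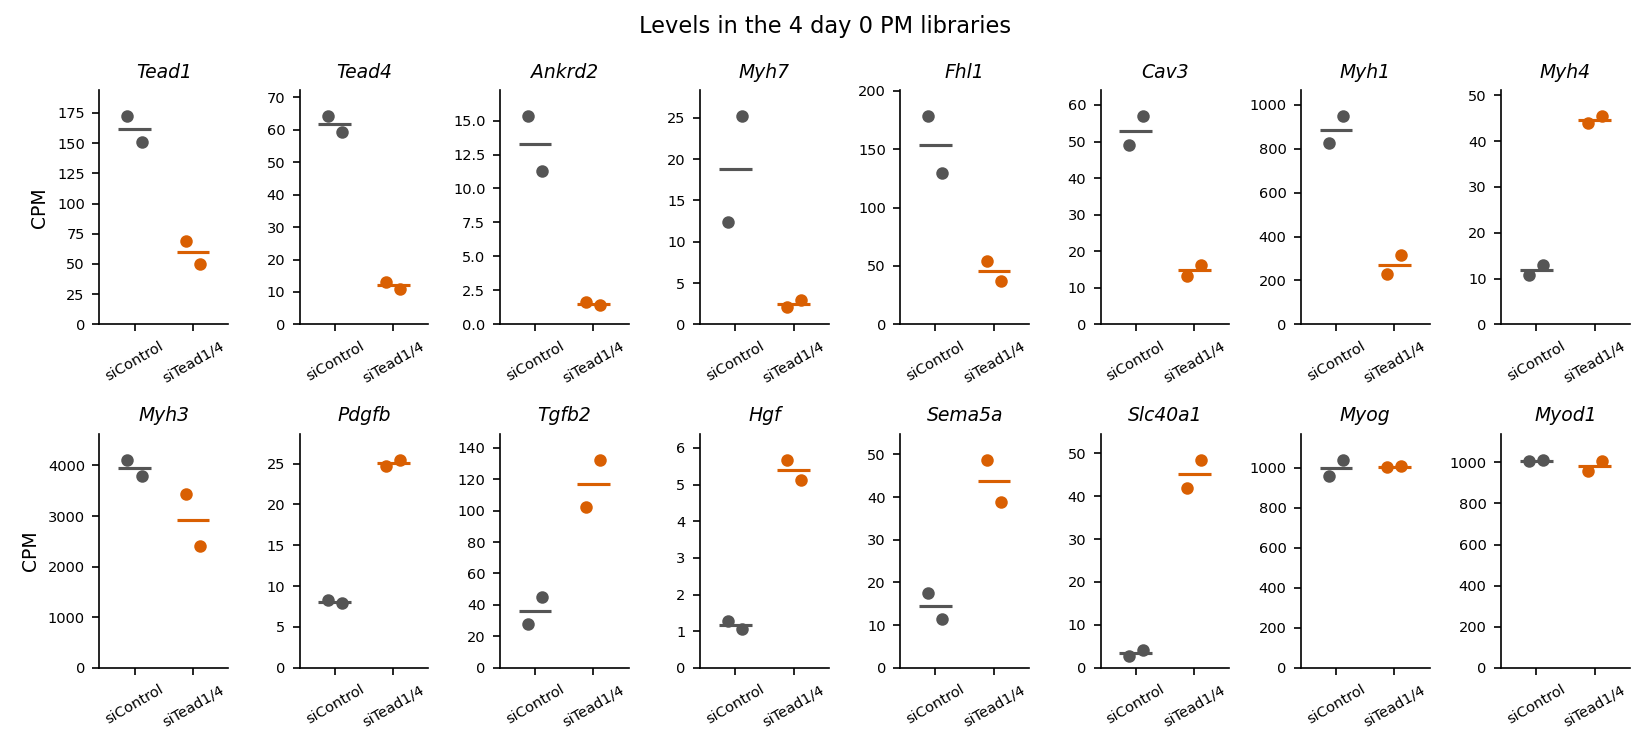
Level in CPM (y axes, linear and starting at 0) of 16 genes in the siControl (grey) and siTead1/4 (orange) libraries of PMs at day 0. Points are the 2 libraries of a group and horizontal lines their mean; the groups stand apart in each gene but Myog and Myod1, with Tead1, Tead4, Ankrd2, Myh7, Fhl1, Cav3, Myh1 and Myh3 lower and the others higher in the siTead1/4 libraries, and Myh3 is not called.

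Because Tead factors bind the MCAT element, the 250 bases before the annotated start of each gene were read from the mm9 genome and searched for its core, CATTCC on either strand. The core was present in 25 of the 177 genes that fell and had a window (14.1%), in 27 of the 239 that rose (11.3%) and in 1733 of the 15828 windows of all tested genes (10.9%). Sarcomere genes with a call and a core are shown for the position of the core, 3 that fell and 1 that rose, 5′ to 3′ on the strand of the gene, with the core in capitals.
Ankrd23, chr1:36592585-36592834, minus strand: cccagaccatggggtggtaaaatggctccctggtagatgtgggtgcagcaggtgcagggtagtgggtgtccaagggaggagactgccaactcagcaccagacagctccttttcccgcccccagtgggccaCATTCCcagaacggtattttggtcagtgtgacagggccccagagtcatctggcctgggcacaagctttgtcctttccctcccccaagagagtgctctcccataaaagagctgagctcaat
Mybph, chr1:136089775-136090024, plus strand: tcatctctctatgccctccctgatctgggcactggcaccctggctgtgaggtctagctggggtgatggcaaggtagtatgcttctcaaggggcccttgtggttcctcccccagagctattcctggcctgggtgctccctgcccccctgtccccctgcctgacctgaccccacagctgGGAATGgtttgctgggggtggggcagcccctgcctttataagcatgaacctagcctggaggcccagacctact
Myh7, chr14:55613472-55613721, minus strand: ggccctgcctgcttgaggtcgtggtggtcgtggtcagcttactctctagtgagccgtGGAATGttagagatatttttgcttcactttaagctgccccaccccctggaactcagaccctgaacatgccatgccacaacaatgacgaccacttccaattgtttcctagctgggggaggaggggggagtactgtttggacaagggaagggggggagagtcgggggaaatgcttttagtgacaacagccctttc
Myh4, chr11:67051064-67051313, plus strand: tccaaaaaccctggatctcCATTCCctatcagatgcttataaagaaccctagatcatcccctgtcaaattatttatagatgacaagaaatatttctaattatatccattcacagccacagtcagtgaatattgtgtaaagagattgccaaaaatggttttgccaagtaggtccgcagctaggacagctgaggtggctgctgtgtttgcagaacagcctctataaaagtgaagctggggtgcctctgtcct
The core started 120 bases before the gene start in Ankrd23, 73 in Mybph, 193 in Myh7 and 231 in Myh4. A match describes these letters only, and the rest of each gene was not searched. The study gives the element with A or T after the core. Of the windows shown, that of Myh7 has such a letter, and those of Ankrd23, Mybph and Myh4 have C there.

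Genes of the actin cytoskeleton, many of which are bound by serum response factor (SRF) and its actin-sensing cofactors, fell in 7 of 34 tested members. That is 20.6%, against 1.10% of all genes, and none rose. The median of the list was −0.26. Tagln, transgelin of contractile cells, fell from 77.6 and 72.5 to 29.9 and 21.2 CPM (log2 fold change −1.56, SE 0.24, edgeR adjusted p = 0.0056). Myh10, a non-muscle myosin heavy chain, fell from 169 and 142 to 74.8 and 68.2 CPM (log2 fold change −1.12, SE 0.23, edgeR adjusted p = 0.017). Pdlim2, which links actin to LIM domain partners, fell from 11.2 and 10.98 to 3.38 and 3.98 CPM (log2 fold change −1.58, SE 0.13, edgeR adjusted p = 3.8e-04), and the siTead1/4 libraries were below both siControl libraries in each of these.

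Ablim1, an actin-binding LIM protein, fell from 68.6 and 69.2 to 31.0 and 27.7 CPM (log2 fold change −1.23, edgeR adjusted p = 0.0014). The actin filament-associated Afap1l1 (log2 fold change −1.26, edgeR adjusted p = 0.0014) and the formin regulator Daam2 (log2 fold change −1.13, edgeR adjusted p = 0.012) fell as well. The calls for Pdlim2, Ablim1 and Afap1l1 were kept without each library in turn. That for Myh10 was lost in each of the 4 fits (log2 fold changes −1.24 to −0.99), and those for Tagln and Daam2 in at least 1. Among the largest falls were also Fmnl1, a formin, from 15.0 and 13.97 to 3.22 and 3.49 CPM (log2 fold change −2.11, edgeR adjusted p = 0.0022). Itga3, the alpha3 integrin chain, fell from 119 and 98.4 to 46.6 and 37.4 CPM (log2 fold change −1.37, edgeR adjusted p = 0.0016).

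In the cell fusion list, 2 of 20 tested genes fell (10.0%, against 1.10% of all genes), Itga3 and Cav3. Cav3, muscle caveolin, was at 49.0 and 56.9 CPM in siControl and 13.3 and 16.3 CPM in siTead1/4 (log2 fold change −1.83, SE 0.32, edgeR adjusted p = 0.0088), and its call was kept in 1 of the 4 fits without a library (log2 fold changes −1.99 to −1.69). None of the 25 tested myogenic factors was called, against 1.50% up and 1.10% down over all genes. Myod1 was at 1005 and 1012 CPM in siControl and 958 and 1005 CPM in siTead1/4 (log2 fold change −0.04, edgeR adjusted p = 0.94). Myog, myogenin, was at 958 and 1038 CPM in siControl and 1002 and 1008 CPM in siTead1/4 (log2 fold change 0.01, edgeR adjusted p = 0.98), both within the spread of the replicates. In siControl PMs at day 3 Myog was at a similar 949 and 1121 CPM, while Myh3 was higher than at day 0, at 10613 and 10718 CPM. In siControl C2C12 cells at day 0, scaled in their own fit, Myog was at 10.2 and 3.05 CPM and Myh3 at 15.6 and 7.54 CPM. The part of this state of the PM cultures in the results was not tested. Mef2a was lower below the size threshold (log2 fold change −0.59, edgeR adjusted p = 0.011). Of 23 satellite cell genes, Sox11, a transcription factor of progenitor cells, fell from 41.2 and 50.01 to 16.8 and 16.9 CPM (log2 fold change −1.44, SE 0.20, edgeR adjusted p = 0.0035), while Pax7 (log2 fold change 0.23, edgeR adjusted p = 0.65) and Myf5 (log2 fold change 0.26, edgeR adjusted p = 0.57) did not pass.

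The membrane systems of muscle moved in both directions. In the list of excitation-contraction coupling, 2 of 33 tested genes rose and 2 fell (6.06% each, against 1.50% and 1.10% of all genes). Casq1, the calcium store protein calsequestrin, fell from 156 and 92.2 to 57.7 and 30.9 CPM (log2 fold change −1.49, edgeR adjusted p = 0.013). Scn3b, a sodium channel beta subunit, fell from 4.08 and 4.28 to 1.66 and 1.53 CPM (log2 fold change −1.39, edgeR adjusted p = 0.0037). Atp1b2, a sodium pump subunit, rose from 2.43 and 3.38 to 16.8 and 18.5 CPM (log2 fold change 2.61, edgeR adjusted p = 1.8e-04). Kcnj12, an inward rectifier potassium channel, rose from 4.36 and 5.29 to 10.3 and 10.6 CPM (log2 fold change 1.12, edgeR adjusted p = 0.0016). At the neuromuscular junction, where acetylcholinesterase is held by a collagen tail, the enzyme and its tail went opposite ways. Ache, the enzyme, rose from 1.59 and 2.14 to 7.0 and 5.98 CPM (log2 fold change 1.81, edgeR adjusted p = 0.012). Colq, the tail, fell from 2.41 and 1.77 to 0.187 and 0.314 CPM (log2 fold change −3.03, edgeR adjusted p = 0.0038). They were the calls among 18 tested genes (5.56% each way). The span of Colq overlaps that of Hacl1 in part, where reads of the pair cannot be told apart without strand.

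Of 47 further channels and transporters of excitable cells, 3 rose and 3 fell (6.38% each, against 1.50% and 1.10% of all genes). Adora1, the A1 adenosine receptor, fell from 8.70 and 11.2 to 3.15 and 3.90 CPM (log2 fold change −1.49, edgeR adjusted p = 0.0014). The serotonin receptor gene Htr2b, which overlaps Psmd1, rose from 2.41 and 4.93 to 12.1 and 16.0 CPM (log2 fold change 1.95, edgeR adjusted p = 0.0088). The glutamate transporter Slc1a3 rose from 1.29 and 1.72 to 10.1 and 9.08 CPM (log2 fold change 2.67, edgeR adjusted p = 8.4e-04). The acid-sensing channel Accn3 rose from 2.26 and 3.94 to 10.2 and 11.4 CPM (log2 fold change 1.80, edgeR adjusted p = 0.012). In muscle metabolism, 2 of 29 tested genes fell (6.90%). These were the fatty acid-binding protein Fabp3 (14.3 and 11.8 to 4.99 and 3.61 CPM, log2 fold change −1.61, edgeR adjusted p = 0.0076) and the nuclear receptor Esrrg (3.30 and 2.65 to 0.700 and 0.726 CPM, log2 fold change −2.06, edgeR adjusted p = 0.012). Of the membrane, channel and metabolism genes, Atp1b2, Scn3b, Colq, Adora1 and Slc1a3 kept their call without each library in turn, and the others named here lost it in at least 1 of these fits.

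Genes of cell division had slightly lower values throughout, without a single call. Every one of the 40 tested DNA replication genes and 42 mitosis genes had a log2 fold change below 0, against 50.8% of all genes. The medians were −0.43 and −0.49. The siTead1/4 libraries stood apart below in 37 and in 42 of them, against 30.8% of all genes tested. An adjusted p under 0.05 was reached by 6 and by 1, and no member passed the size threshold. All 82 were also below 0 with median-of-ratios scaling and with DESeq2.

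Rrm2, a subunit of ribonucleotide reductase that makes the building blocks of DNA, was at 709.7 and 788 CPM in siControl and 333 and 457 CPM in siTead1/4 (log2 fold change −0.92, SE 0.15, edgeR adjusted p = 0.0060). Mad2l1, of the spindle checkpoint, was at 88.6 and 83.5 CPM in siControl and 38.8 and 47.5 CPM in siTead1/4 (log2 fold change −0.996, SE 0.22, edgeR adjusted p = 0.023). Mcm2, of the replicative helicase, was at 169.8 and 163 CPM in siControl and 110.1 and 123 CPM in siTead1/4 (log2 fold change −0.51, SE 0.09, edgeR adjusted p = 0.0083). The proliferation marker Mki67 was at 399.8 and 361 CPM in siControl and 301 and 257 CPM in siTead1/4 (log2 fold change −0.45, edgeR adjusted p = 0.46). Of the list of G1 cyclins, Cdk inhibitors and E2F factors, with 29 genes tested, the one call was a rise of Btg1, an antiproliferative gene, from 53.4 and 60.4 to 122 and 131 CPM (log2 fold change 1.15, edgeR adjusted p = 0.0063). Ccnd1, cyclin D1, stayed within the spread of the replicates at 528 and 496 CPM in siControl and 523 and 480.5 CPM in siTead1/4 (log2 fold change −0.03, edgeR adjusted p = 0.96).

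Immediate early genes, which cells transcribe within minutes of a growth signal, rose in 5 of 29 tested members (17.2%, against 1.50% of all genes). A single member fell (3.45%, against 1.10%), and the list median was 0.44. The zinc finger factor Egr2 rose from 1.82 and 2.14 to 7.0 and 8.57 CPM (log2 fold change 1.98, SE 0.41, edgeR adjusted p = 0.016). Its paralog Egr3 rose from 0.825 and 1.35 to 4.15 and 6.41 CPM (log2 fold change 2.31, SE 0.39, edgeR adjusted p = 0.0077). Fos, a partner in the AP-1 dimer, rose from 3.47 and 2.65 to 8.28 and 9.61 CPM (log2 fold change 1.54, SE 0.23, edgeR adjusted p = 0.0048). Dusp2, a phosphatase that switches off Erk, rose from 25.8 and 30.8 to 71.4 and 86.0 CPM (log2 fold change 1.48, SE 0.29, edgeR adjusted p = 0.014). In all 4 genes both siTead1/4 libraries were above both siControl libraries.

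Klf9 rose as well, from 7.85 and 6.42 to 16.3 and 15.3 CPM (log2 fold change 1.14, edgeR adjusted p = 0.0014), whereas Klf2 fell from 6.96 and 9.24 to 3.15 and 3.43 CPM (log2 fold change −1.30, edgeR adjusted p = 0.013). The calls for Fos and Klf9 were kept without each library in turn, and those for Egr2 and Dusp2 in none of the 4 fits, with log2 fold changes of 1.83 to 2.12 and of 1.33 to 1.61. Mapk6, an atypical Map kinase, fell from 370.0 and 373 to 149 and 174 CPM (log2 fold change −1.20, edgeR adjusted p = 6.8e-04), and Map4k4, a kinase of the Hippo list, from 638 and 614 to 310.1 and 311 CPM (log2 fold change −1.01, edgeR adjusted p = 0.0014). Map4k4 was the one call among 24 tested Hippo genes (4.17%, against 1.10% of all genes that fell).

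In the growth factor list 5 of 56 tested genes rose (8.93%, against 1.50% of all genes) and none fell. Pdgfb, platelet-derived growth factor B, rose from 8.34 and 7.88 to 24.7 and 25.4 CPM (log2 fold change 1.63, SE 0.13, edgeR adjusted p = 3.8e-04), and its call was kept without each library in turn. Hgf, the ligand of the Met receptor that activates satellite cells, rose from 1.27 and 1.07 to 5.67 and 5.14 CPM (log2 fold change 2.20, edgeR adjusted p = 0.0083). Vegfc, of lymphatic growth, rose from 6.71 and 8.28 to 19.0 and 22.4 CPM (log2 fold change 1.47, edgeR adjusted p = 0.012). The remaining members were Angptl4 (log2 fold change 1.29, edgeR adjusted p = 0.023) and the neurotrophin Bdnf (log2 fold change 1.30, edgeR adjusted p = 0.012). Without single libraries the calls for Vegfc and Angptl4 were lost in all 4 fits, at log2 fold changes of 1.32 to 1.63 and of 1.05 to 1.61.

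Tgfb2, a ligand that holds back differentiation of myoblasts, rose from 27.7 and 44.7 to 102 and 132 CPM (log2 fold change 1.70, SE 0.26, edgeR adjusted p = 0.0053). It was the one call of 45 tested genes of the Tgfb, BMP and activin list (2.22%, near the 1.50% of all genes that rose). It is also listed among the Yap-Tead target genes, of which 2 of 35 tested rose (5.71%) and none fell, with a median of −0.23. The other was Ccdc80, a secreted matrix protein (9.40 and 9.63 to 21.0 and 20.8 CPM, log2 fold change 1.14, edgeR adjusted p = 0.011). Most of the list was lower, with 23 of 35 below 0 against 50.8% of all genes. The siTead1/4 libraries stood apart below in 17 and above in 6, against 30.8% and 27.4% of all genes. At any size, 5 lower and 2 higher members had an adjusted p under 0.05 in edgeR. The targets most used to read out Yap did not pass the test. Cyr61 was at 170.3 and 131 CPM in siControl and 104 and 74.0 CPM in siTead1/4 (log2 fold change −0.76, edgeR adjusted p = 0.055), and Ctgf at 19.0 and 17.01 CPM in siControl and 18.7 and 12.2 CPM in siTead1/4 (log2 fold change −0.23, edgeR adjusted p = 0.74). Axl, a receptor tyrosine kinase of the list, was lower below the size threshold, at 581 and 506 CPM in siControl and 305 and 287 CPM in siTead1/4 (log2 fold change −0.88, edgeR adjusted p = 0.012).

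Of 49 tested Wnt genes, 2 rose (4.08%, against 1.50% of all genes) and 1 fell (2.04%, against 1.10%). Sfrp2, a secreted Wnt antagonist, rose from 4.78 and 4.05 to 16.1 and 10.4 CPM (log2 fold change 1.58, edgeR adjusted p = 0.012). Rspo3, a secreted Wnt enhancer, had 3 and 2 counts in the siControl libraries and 27 and 32 in the siTead1/4 libraries, which is at least 8.50-fold higher against a floor of 3 counts per library. The receptor Fzd10 fell at a very low level (0.360 and 0.253 to 0.0933 and 0.0392 CPM, log2 fold change −2.22, edgeR adjusted p = 0.015). In the matrix list Adamtsl5 fell (log2 fold change −1.74, edgeR adjusted p = 0.013). It was 1 of 52 tested genes (1.92%), near the 1.10% of all genes that fell. Itga11 rose (log2 fold change 1.17, edgeR adjusted p = 0.021) beside the fall of Itga3 among 29 integrins and cadherins (3.45% each way). Of 21 tested cholesterol genes, 1 fell (4.76%) and none rose. The calls for Rspo3, Itga11 and Ccdc80 were lost in all 4 fits, those for Sfrp2, Fzd10 and Adamtsl5 in at least 1, and that for Tgfb2 in 1. No gene was called among 25 of the Notch pathway and 40 of the interferon response, against 1.50% up and 1.10% down over all genes. At these shares lists of this size would hold few calls or none. Values were higher in siTead1/4 for 20 of the 25 and for 24 of the 40.

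Genes of axon guidance and neural adhesion rose in 8 of 61 tested members (13.1%, against 1.50% of all genes) and none fell, with a list median of 0.10. Sema5a, a semaphorin, rose from 17.6 and 11.5 to 48.7 and 38.9 CPM (log2 fold change 1.59, SE 0.24, edgeR adjusted p = 0.0048). Pcdh17, a protocadherin, rose from 2.09 and 3.01 to 14.5 and 12.7 CPM (log2 fold change 2.42, SE 0.31, edgeR adjusted p = 0.0020). The ephrin receptors Epha3, Epha7 and Ephb1 rose as well, Ephb1 from 1.08 and 1.72 to 3.71 and 5.08 CPM (log2 fold change 1.68, SE 0.22, edgeR adjusted p = 0.0025). The groups stood apart in each of them.

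Epha3 (log2 fold change 1.31, edgeR adjusted p = 0.016) and Epha7 (log2 fold change 1.62, edgeR adjusted p = 0.0068) were joined by Robo2, a Slit receptor (0.889 and 1.04 to 5.88 and 3.98 CPM, log2 fold change 2.35, edgeR adjusted p = 0.0083), and by the adhesion molecules Cntn1 (log2 fold change 1.58, edgeR adjusted p = 0.035) and Cadm2 (log2 fold change 2.07, edgeR adjusted p = 0.032). The calls for Sema5a, Pcdh17 and Ephb1 were kept without each library in turn, and those for Cntn1 and Cadm2 in none of the fits (log2 fold changes 1.34 to 1.85 and 1.65 to 2.80). Of 9 tested neuronal markers 2 rose (22.2%, against 1.50% of all genes). Mapt, the protein tau, rose from 0.317 and 0.394 to 1.56 and 1.118 CPM (log2 fold change 1.91, edgeR adjusted p = 0.013). The summed level of the 14 neuronal markers in the table was 68.5 and 72.3 CPM in the siControl libraries and 50.7 and 46.3 CPM in the siTead1/4 libraries. Tubb3 made up most of it, and the other 13 summed to 11.2 and 14.3 CPM in siControl and 21.3 and 17.3 CPM in siTead1/4, with 7 of the 9 tested markers higher. Rbfox3, the defining marker of mature neurons, had 0 counts in all 4. Fabp7, a fatty acid-binding protein of radial and Schwann glia (ENSMUSG00000019874, chromosome 10, 57504687 to 57508256), rose from 4.49 and 4.03 to 27.6 and 30.9 CPM (log2 fold change 2.78, SE 0.35, edgeR adjusted p = 0.0021). The summed level of the 12 Schwann and glial markers was 172 and 160.1 CPM in siControl and 162 and 155 CPM in siTead1/4. Erbb3, which myoblasts also express, made up most of it, at 128 and 124 CPM in siControl and 92.7 and 81.3 CPM in siTead1/4. The other 11 summed to 43.8 and 36.5 CPM in siControl and 69.0 and 73.7 CPM in siTead1/4, and 8 of the 10 tested markers had a higher value. The part of such cells in these rises was not tested. Tek, an endothelial receptor, rose (1.04 and 0.845 to 3.13 and 2.24 CPM, log2 fold change 1.50, edgeR adjusted p = 0.011) as 1 of 11 endothelial markers, whose summed level was 18.7 and 9.60 CPM in siControl and 29.5 and 14.3 CPM in siTead1/4.

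**Figure D3:**
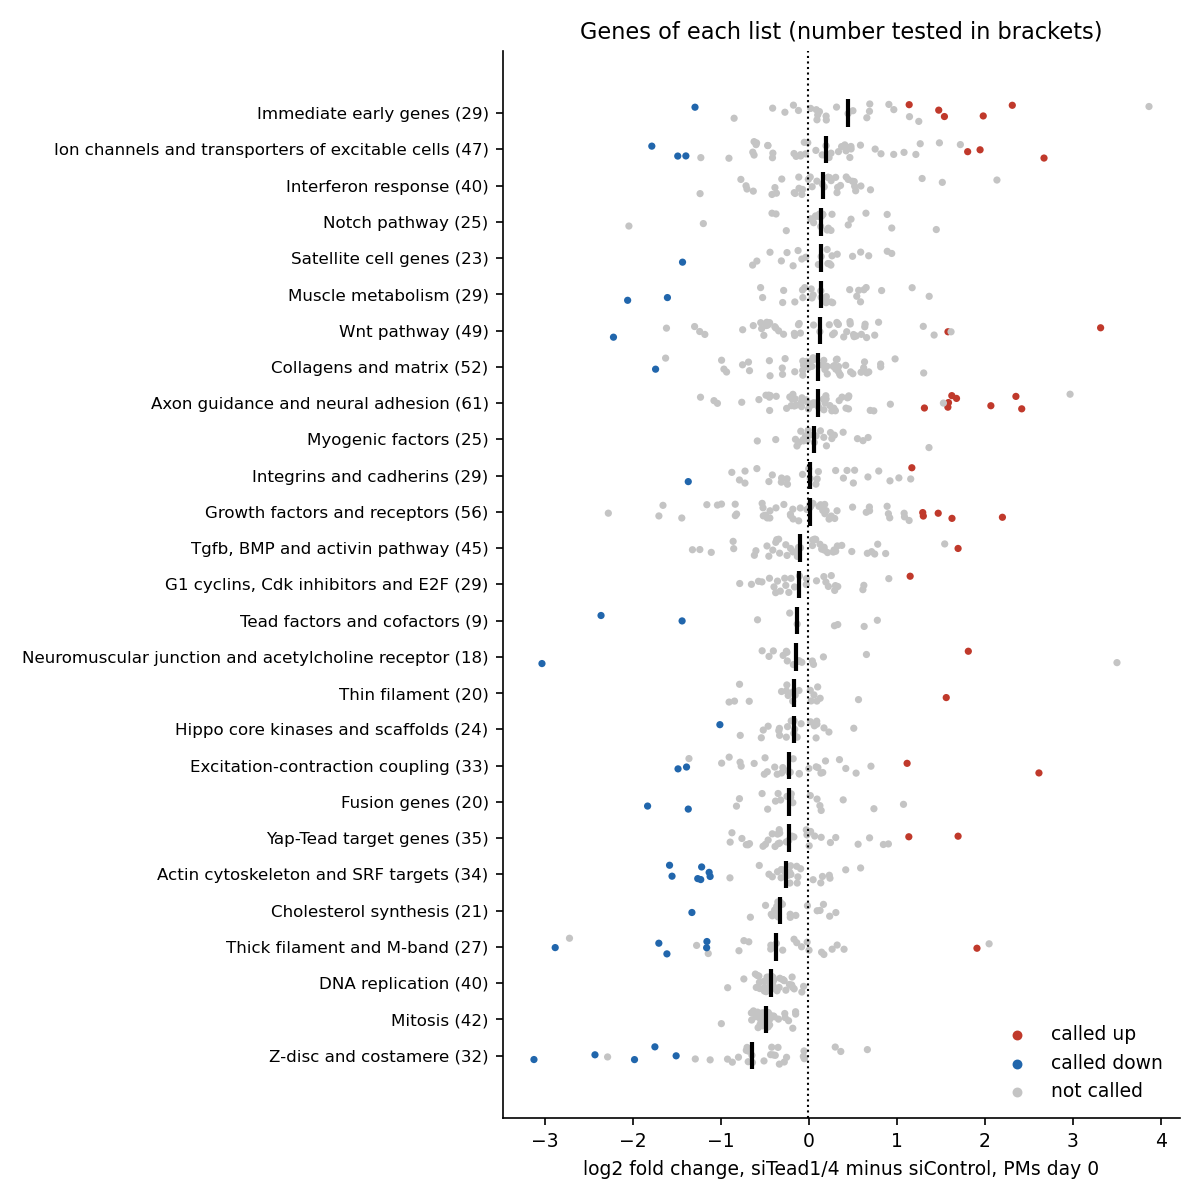
Log2 fold change of siTead1/4 against siControl at day 0 (x axis) of each tested member of the 27 gene lists (rows, number tested in brackets, sorted by median). Red and blue points are genes called up and down, grey points are not called, and the black bar is the median of the list; all 40 DNA replication and 42 mitosis genes lie left of 0 with no call.

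The largest rise above the 5 CPM floor was that of Slc40a1, ferroportin, the iron exporter of cells (ENSMUSG00000025993, chromosome 1, 45964915 to 45982439). It went from 2.84 and 4.17 to 41.9 and 48.4 CPM (log2 fold change 3.70, SE 0.35, edgeR adjusted p = 8.3e-04), with both siTead1/4 libraries far above the siControl libraries, and its call was kept without each library in turn. Dock10, a guanine nucleotide exchange factor, rose from 4.51 and 4.36 to 31.2 and 21.7 CPM (log2 fold change 2.58, edgeR adjusted p = 0.0051). Mme, the surface peptidase neprilysin, rose from 5.71 and 4.53 to 24.8 and 23.4 CPM (log2 fold change 2.23, edgeR adjusted p = 0.0022). The flippase gene Atp9a rose from 7.85 and 10.2 to 38.6 and 40.9 CPM (log2 fold change 2.14, edgeR adjusted p = 3.7e-04). Nnat, neuronatin, rose from 5.23 and 8.45 to 37.6 and 27.5 CPM (log2 fold change 2.25, edgeR adjusted p = 0.0019) and lies inside Blcap. Txnip, an inhibitor of thioredoxin and of glucose uptake, rose from 9.01 and 5.32 to 35.1 and 26.8 CPM (log2 fold change 2.10, edgeR adjusted p = 0.025), a call lost in each fit without a library (log2 fold changes 1.78 to 2.54).

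Further large falls were those of Megf6, an EGF-repeat protein, from 25.9 and 30.6 to 3.62 and 3.78 CPM (log2 fold change −2.93, edgeR adjusted p = 0.0068), and of Fn3k, which phosphorylates sugars bound to proteins, from 9.48 and 9.63 to 2.29 and 1.90 CPM (log2 fold change −2.19, edgeR adjusted p = 0.0016). The lactate transporter gene Slc16a3 fell from 33.3 and 18.02 to 7.44 and 6.29 CPM (log2 fold change −1.91, edgeR adjusted p = 0.0037) and overlaps Csnk1d. Ptprf, a receptor phosphatase of cell contacts, fell from 23.7 and 29.1 to 7.19 and 5.61 CPM (log2 fold change −2.05, edgeR adjusted p = 0.046). The calls for Fn3k and Slc16a3 were kept without each library in turn, that for Megf6 in 1 of the 4 fits and that for Ptprf in none (log2 fold changes −2.23 to −1.88).

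The genes with the highest counts among those that fell were Myh1, Map4k4, Ugcg, Ssr3 and Dclk1. Ugcg, the glucosylceramide synthase, fell from 496 and 547 to 245 and 258 CPM (log2 fold change −1.05, edgeR adjusted p = 0.0014). Ssr3, which helps proteins into the endoplasmic reticulum, fell from 485 and 458 to 192 and 227 CPM (log2 fold change −1.17, edgeR adjusted p = 0.0017), and the kinase gene Dclk1 from 483 and 396 to 202 and 152 CPM (log2 fold change −1.31, edgeR adjusted p = 0.0074). Ugdh, Trp53inp1, Btg1 and Tgfb2 had the highest counts among the genes that rose. Ugdh, which makes a sugar acid of matrix glycans, rose from 153 and 181 to 313 and 360.5 CPM (log2 fold change 1.01, edgeR adjusted p = 0.0019). Trp53inp1, a p53 target, rose from 63.3 and 66.8 to 138 and 127 CPM (log2 fold change 1.03, edgeR adjusted p = 0.020).

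Some genes that the study plots for this silencing, and which it chose on these samples, were not called at day 0. Itga4, the alpha4 integrin chain, went from 47.0 and 56.0 to 129 and 101 CPM (log2 fold change 1.16, edgeR adjusted p = 0.12), and Fgf7, a growth factor, from 2.67 and 2.93 to 5.25 and 6.61 CPM (log2 fold change 1.09, edgeR adjusted p = 0.077), in both cases with the siTead1/4 libraries above and without passing the test. Fzd9 (log2 fold change −1.30, edgeR adjusted p = 0.12), Camk2a (log2 fold change −0.90, edgeR adjusted p = 0.046), Mef2c (log2 fold change −0.38, edgeR adjusted p = 0.10), Tgfa (log2 fold change −0.47, edgeR adjusted p = 0.61), Rassf2 (log2 fold change 0.51, edgeR adjusted p = 0.35), Fst (log2 fold change −0.18, edgeR adjusted p = 0.86) and Ckmt2 (log2 fold change −0.07, edgeR adjusted p = 0.91) were not called either. Of these, Fgf7 and Rassf2 were called up at day 3 (1.96 and 1.67) and Ckmt2 down (−1.11). All these calls come from the fit without a replicate block. With the replicate number as a block, more genes were called at day 0, 340 up and 246 down. A missing call at day 0 may therefore depend on that choice.

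A run of neighbouring genes on chromosome 12 fell as a block. Within 110779211 to 110987665 lay 4 tested genes, Meg3, Rtl1, Rian and Mirg, and all 4 fell. They belong to the imprinted Dlk1-Dio3 domain, whose long noncoding RNAs are transcribed from the maternal chromosome. The called genes set the ends of this span. Other runs of called neighbours held genes without a call, such as chromosome 11, 120809794 to 121311805, with 3 calls among 14 tested genes. Rian fell from 141 and 147 to 29.3 and 27.7 CPM (log2 fold change −2.34, SE 0.41, edgeR adjusted p = 0.0091). Meg3 fell from 68.7 and 97.3 to 24.2 and 18.8 CPM (log2 fold change −1.95, SE 0.37, edgeR adjusted p = 0.013), and Mirg from 4.51 and 6.90 to 1.19 and 1.04 CPM (log2 fold change −2.35, SE 0.41, edgeR adjusted p = 0.0084). Rtl1, which is read from the paternal chromosome and whose reads cannot be told apart from those of its antisense RNA, fell from 0.677 and 0.507 to 0.140 and 0.137 CPM (log2 fold change −2.08, edgeR adjusted p = 0.025). The siTead1/4 libraries lay below both siControl libraries in each of the 4. Dlk1, a protein-coding gene of the same domain, had a lower value without passing the test (2.09 and 1.61 to 0.910 and 0.706 CPM, log2 fold change −1.20, edgeR adjusted p = 0.053).

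The calls for Rian, Meg3 and Mirg were each kept in 1 of the 4 fits without a library and that for Rtl1 in none, with log2 fold changes of −2.38 to −2.30 for Rian and of −2.18 to −1.68 for Meg3. At day 3 none of the 4 was called (Rian −0.24, Meg3 0.15 on the log2 scale). On chromosome 14 the mast cell protease gene Mcpt8 and the granzyme genes Gzme and Gzmd fell together, Mcpt8 from 7.13 and 10.8 to 1.66 and 2.45 CPM (log2 fold change −2.11, edgeR adjusted p = 0.0092). These granzyme genes are near-identical copies, so that their separate counts are uncertain.

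The day 0 calls were set against those of PMs at days 3 and 6 of differentiation, which come from libraries of their own. At day 3, 339 genes were called up (2.10% of those tested) and 193 down (1.20%), and at day 6, 75 (0.465%) and 45 (0.279%). Of the 242 genes that rose at day 0, 62 were also called up at day 3 (25.6% of the day 0 calls and 18.3% of the day 3 calls) and 17 at day 6 (7.02% and 22.7%). Of the 178 that fell, 41 were also called down at day 3 (23.0% and 21.2%) and 7 at day 6 (3.93% and 15.6%). The direction was the same for 206 of the genes that rose and 155 of those that fell at day 3, and for 173 and 129 at day 6. Their median log2 fold change was 1.58 at day 0, 0.72 at day 3 and 0.28 at day 6 in the first set, and −1.39, −0.66 and −0.29 in the second. Over all genes tested it was 0.0079 at day 3 and 0.0007 at day 6. The genes were chosen by their day 0 values, so smaller values in other libraries would follow in part from that choice. Whether the effect faded cannot be read from these medians.

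At all 3 days, 16 genes were called up and 7 down. The 7 were Tead4, the Z-disc genes Ankrd2, Ankrd23 and Fhl1, and Adprhl1, Colec10 and Dpep1. For Ankrd2 the log2 fold changes were −3.13, −3.80 and −3.16 at days 0, 3 and 6, and for Fhl1 they were −1.75, −2.26 and −2.24. The 16 included Myh4 (1.91, 2.02 and 1.62), Tgfb2 (1.70, 1.55 and 1.30), Pdgfb (1.63, 1.27 and 1.08), Ache (1.81, 1.89 and 1.78) and Ephb1 (1.68, 2.03 and 1.24). Tead1 was called down at days 0 and 3 and not at day 6 (−1.44, −1.68 and −1.10), where its adjusted p was 0.14. Tead3, not called at day 0, was called up at day 3 (1.16) and day 6 (1.01).

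Whether the effect itself differed between day 3 and day 0 was tested as a difference of the 2 log2 fold changes. It was called for 53 genes (0.328%), of which 10 had risen and 8 had fallen at day 0. The day 0 libraries enter both the day 0 call and this difference, so that the counts are a description. For Mybph the log2 fold changes were −1.61 at day 0 and 0.20 at day 3 (difference 1.81, SE 0.15, edgeR adjusted p = 0.0015). Its partner in overlap Adora1 (1.68, adjusted p = 0.023), the Z-disc list member Abra (2.45, adjusted p = 0.032), and the actin genes Pdlim2 (1.24, adjusted p = 0.032) and Afap1l1 (1.28, adjusted p = 0.032) likewise differed, each with its lower value at day 0. In the same edgeR fit the values of Atp1b2 (−1.30, adjusted p = 0.040) and Atp9a (−1.29, adjusted p = 0.048) were higher at day 0 than at day 3.

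Some genes were called in opposite directions on different days. Itga11, the alpha11 integrin chain, rose at day 0 and fell at day 3 (1.17 and −1.60), and Dhrs3, a retinal reductase, did so too (1.15 and −1.69). Tigd4 was called down at day 0, at a level under 1 CPM, and up at day 3, and lies inside the much more abundant Arfip1. Fam132b was called down at day 0 (−1.06) and up at day 6 (1.33). The replication and mitosis genes, all 82 below 0 at day 0, were below 0 in 10 of 40 and 3 of 42 at day 3, with list medians of 0.10 and 0.18, and in 21 and 21 at day 6, with medians of −0.01 and −0.00. Of the actin list, 13 of 34 genes were below 0 at day 3 against 27 at day 0, and 1 was called down against 7.

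**Figure D4:**
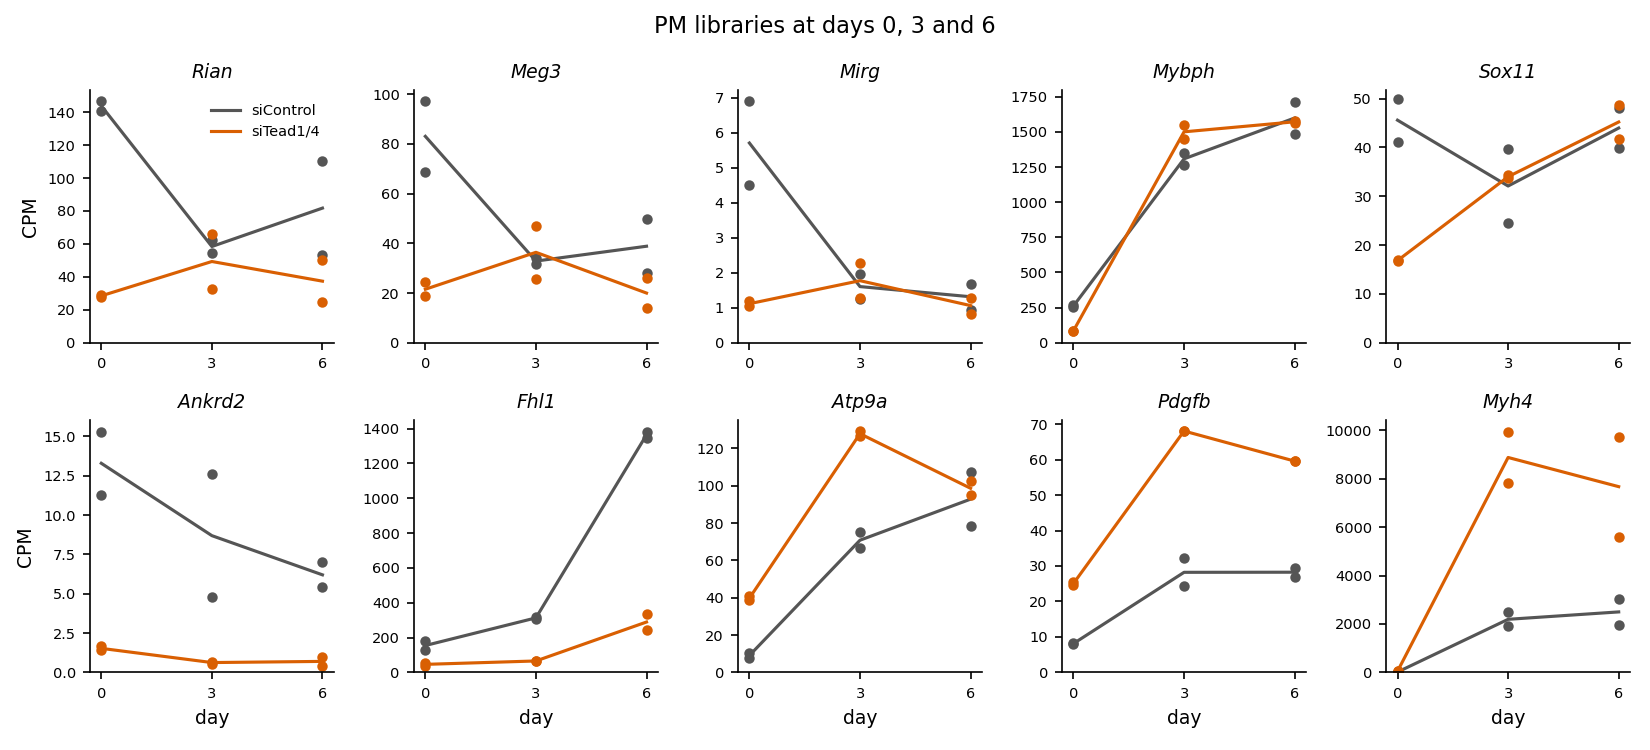
Level in CPM (y axes, linear and starting at 0) of 10 genes in the PM libraries at days 0, 3 and 6 (x axis), siControl in grey and siTead1/4 in orange. Points are the 2 libraries of a group and lines join group means; Ankrd2, Fhl1, Pdgfb and Myh4 stand apart in the same direction at each day, while Mybph and Sox11 are lower in the siTead1/4 libraries at day 0 and not at day 3.

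In C2C12 cells at day 0, whose libraries are separate from those of PMs, the same siRNAs called 21 genes up (0.137% of 15303 tested) and 46 down (0.301%). Tead4 was called down in these cells, and Tead1 was not (log2 fold change −2.46, edgeR adjusted p = 0.17). Tead1 was at 74.6 and 118 CPM in siControl and 30.0 and 4.77 CPM in siTead1/4, so that the silenced replicates were unlike. The part of this in the number of calls was not tested. Of the 189 genes that rose in PMs and were tested in C2C12 cells, 165 had the same direction there, with a median log2 fold change of 0.80. Of the 161 that fell, 129 had, with a median of −0.75, against 0.02 over all genes tested in C2C12 cells. The genes were chosen by their values in PMs, so their medians in the 2 cell types are not on a par. Called in both were 5 of those that rose, which is 2.65% of the PM calls and 23.8% of the C2C12 calls, and 16 of those that fell (9.94% and 34.8%). The 5 were Pdgfb, the Polycomb protein gene Cbx7 (1.49 in PMs and 1.82 in C2C12 cells), the cell death gene Bmf (1.72 and 3.08), Ifitm1 and 4632428N05Rik.

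**Figure D5:**
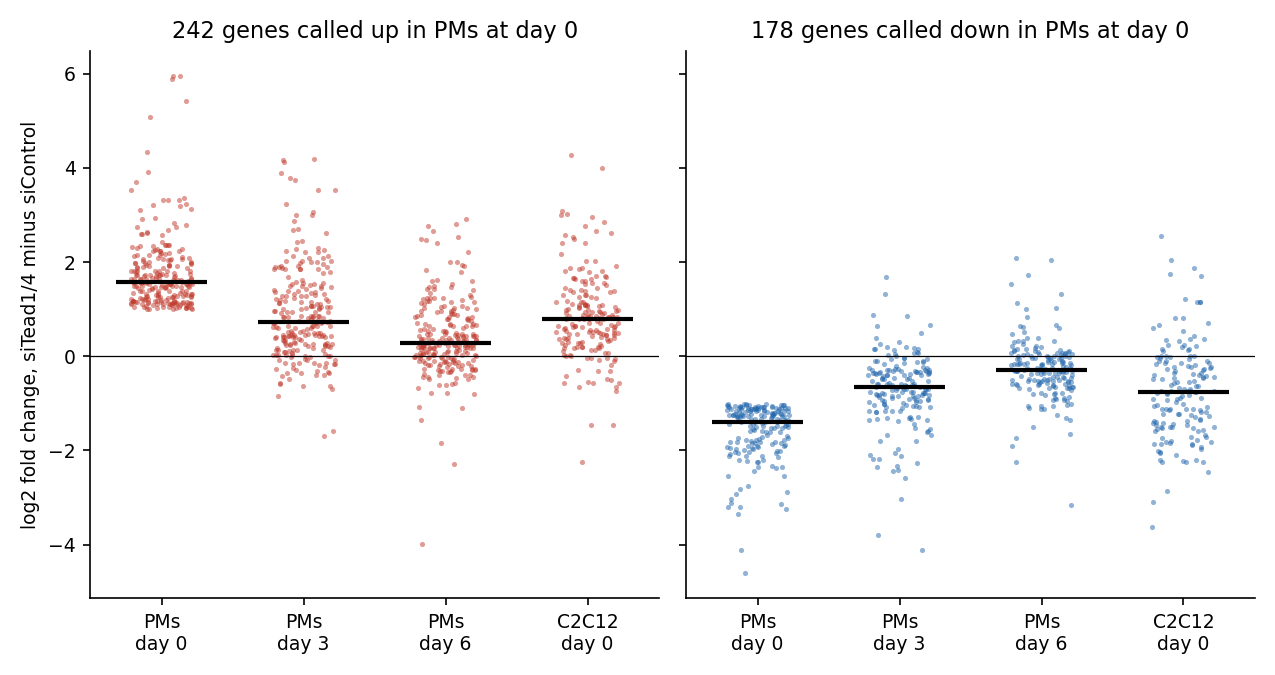
Log2 fold change of siTead1/4 against siControl (y axis) of the 242 genes that rose (left) and the 178 that fell (right) in PMs at day 0, shown at day 0, at days 3 and 6 and in C2C12 cells at day 0, 1 point per tested gene. Black bars are medians, which are 1.58, 0.72, 0.28 and 0.80 on the left and −1.39, −0.66, −0.29 and −0.75 on the right; the day 0 values of PMs chose the genes.

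The 16 that fell in both cell types included Tead4, the calpain Capn2, Mapk6, Ugcg, Mtmr12, Mob4, Ei24, Gmfb, Ssx2ip, Man2a1, Wdr55, the caspase inhibitor Xiap, the cell cycle kinase Cdk14, the DNA repair gene Xrcc4 and 1810055G02Rik. Capn2, a calcium-dependent protease, went from 339 and 320.4 to 129 and 128 CPM in PMs (log2 fold change −1.36, SE 0.12, edgeR adjusted p = 4.5e-04) and had a log2 fold change of −1.77 in C2C12 cells. Ugcg had −1.05 in PMs and −1.73 in C2C12 cells, and Mapk6 −1.20 and −1.53. None of the sarcomere genes that fell in PMs was among the 16, yet some lay on the same side at low levels. Mybph was at 4.80 and 1.602 CPM in siControl and 1.13 and 0.738 CPM in siTead1/4 of C2C12 cells (log2 fold change −1.73, edgeR adjusted p = 0.27). For Myh7 the log2 fold change in C2C12 cells was −1.84 (edgeR adjusted p = 0.38). No sarcomere gene was called for a difference between the cell types. A test of the difference between the cell types called a single gene (0.00591% of 16926), Nefm, a neurofilament chain. Nefm was at 1.71 and 1.49 CPM in siControl and 2.64 and 2.43 CPM in siTead1/4 of PMs, and at 87.6 and 84.7 CPM against 16.4 and 22.1 CPM in C2C12 cells (difference 2.83, SE 0.39, edgeR adjusted p = 0.027). At an unadjusted p under 0.05 there were 725 such genes, and DESeq2 called 15 higher and 17 lower in PMs.

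As a reading of differentiation that shares no library with PMs, siControl C2C12 cells at day 3 were set against day 0, which called 16.0% of tested genes up and 12.7% down. Among the genes tested in both cell types, 42.3% of those that rose in PMs at day 0 were raised in differentiating C2C12 cells and 11.6% lowered. Of those that fell, 50.3% were raised and 13.7% lowered. Over all 14577 genes tested in both, the shares were 15.9% and 12.4%. Genes that go up with differentiation were thus frequent on both sides of the comparison.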

How the data were processed

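RNA-seq of polyadenylated RNA, from an unstranded library kit, was analysed in the 4 libraries of PMs at day 0, with the other libraries of the series as named above. According to the study, reads were mapped to mm9 (NCBIM37) with Tophat. The submitters' processing notes list CASAVA 1.8.2, TopHat2 2.0.10, Bowtie2 2.1.0, HTSeq 0.6.1 and DESeq2 1.8.1. The authors deposited raw read counts per gene, which were used here, and the same counts divided by size factors, which were not. Another 36 columns, for 12 libraries outside the listed samples, were left out.

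Samples were grouped by their labels. Genes were filtered with filterByExpr and library sizes scaled with TMM in edgeR 4.0.16 (R 4.3.3), and the 12 PM libraries were fitted together with 6 group means. The quasi-likelihood test compared siTead1/4 with siControl at day 0, p-values were adjusted over 16144 genes with the Benjamini-Hochberg method, and the call needed both an adjusted p under 0.05 and a log2 fold change beyond 1 in either direction. CPM are counts divided by the TMM-scaled library size and brought to a common total. Where both libraries of the lower group had at most 3 counts, a fold is given as a bound against that floor, which covers counting error only. The difference to day 3 was tested in the same fit and the difference to C2C12 cells in a fit of all 24 libraries with 12 group means. C2C12 cells were otherwise fitted on their own.

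Named were the Tead genes and cofactors, the 12 largest rises and falls with a mean of at least 5 CPM, the 5 most abundant called genes in each direction, every called member of 27 pathway and 8 marker lists, and the genes the study plots. Some genes that the rule takes are not reported here. The gene lists were chosen with earlier results of these data known. Runs of called neighbours, genes called in both cell types and genes called in opposite directions were named after their values were seen. The alternatives were DESeq2 1.42.0 with and without shrinkage, median-of-ratios scaling, other filters, other sets of libraries, a replicate block, and each library left out. The fits were tested on simulated data with known fold changes. With 2 libraries in each group, the test takes its spread largely from other genes and groups. At 32571583 to 44748721 counts per library, genes under 1 CPM rest on few counts in relation to the spread between replicates.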

Additional observations from a re-analysis of the deposited data

Results flagged for a closer look

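The log2 fold change of siTead1/4 against siControl differed between day 3 and day 0 of PMs in several named genes, by a test of the difference itself in edgeR. Genes with a lower value at day 0 than at day 3 were Abra (difference, day 3 minus day 0, 2.45), Mybph (1.81), Adora1 (1.68), Tubb3 (1.32), Afap1l1 (1.28) and Pdlim2 (1.24). Genes with a higher value at day 0 were Dhrs3 (difference −2.84), Itga11 (−2.77), Atp1b2 (−1.30) and Atp9a (−1.29). Tubb3, a tubulin of neurons and of differentiating cells, was below the size threshold at day 0 (57.3 and 58.0 to 29.4 and 29.0 CPM, log2 fold change −0.98, edgeR adjusted p = 0.0057) and had a log2 fold change of 0.34 at day 3. Mybph and Adora1 share part of their spans, so that their differences are not separate observations without strand.

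Nefm was the one gene called for a difference of the effect between PMs and C2C12 cells at day 0 (difference 2.83, PMs minus C2C12 cells). Its level was lower in the siTead1/4 libraries of C2C12 cells and higher in those of PMs. The call was lost without any one of the PM libraries or either C2C12 siControl library. Other genes cannot be said to respond alike in both cell types, as 725 had an unadjusted p under 0.05 in edgeR. The value in PMs alone did not pass the test (log2 fold change 0.66, edgeR adjusted p = 0.18). Its span overlaps that of Nefl, another neurofilament gene.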

How the results depend on the processing

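The counts of genes called at day 0, 242 up and 178 down, stayed within 1.5 times under DESeq2, median-of-ratios scaling, other filters and the 4 libraries alone. They were 101 and 103 with all 24 libraries in one fit. Without a library they ranged from 50 to 100 up and from 82 to 106 down, with 50 and 101 without siControl replicate 1, 84 and 103 without siControl replicate 2, 85 and 82 without siTead1/4 replicate 1, and 100 and 106 without siTead1/4 replicate 2. In these fits a lone library is assumed to vary like the other groups. Each called gene kept its direction in every alternative that gave it a value.

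With 2 pairs of like-numbered replicates, which the labels do not tie to a batch or animal, the replicate differences of the 2 groups had a correlation of 0.598 over 12323 genes. The fit with the replicate number as a block called 340 up and 246 down, 2 higher and 3 lower for the difference between cell types, and 163 and 124 for the difference between days.

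The difference between cell types (1 gene higher, 0 lower) gave 15 and 17 with DESeq2 and 38 and 50 with no filter. Without a library it gave 0 to 46 higher and 0 to 31 lower. The highest counts, 46 and 31, came without C2C12 siTead1/4 replicate 1, and none was higher without any one of the PM libraries or either C2C12 siControl library. The difference between days (37 higher, 16 lower) gave 152 and 119 with DESeq2, 201 and 172 with no filter and 32 lower with at least 10 counts in every library. Without a library it gave 2 to 23 higher and 0 to 7 lower. With DESeq2, 30 genes were up at both day 0 and day 6 and 12 down. The cause of these changes was not tested. With 2 libraries per group, a gene that was not called cannot be said to be unchanged.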

Other observations

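The Ypel family, small zinc-binding proteins, was looked at after its values were seen. Ypel5 rose from 34.7 and 41.0 to 76.6 and 85.5 CPM (log2 fold change 1.10, edgeR adjusted p = 0.0014), Ypel3 from 7.85 and 9.83 to 21.4 and 21.4 CPM (log2 fold change 1.28, edgeR adjusted p = 0.0038) and Ypel2 from 3.34 and 3.35 to 8.96 and 7.43 CPM (log2 fold change 1.29, edgeR adjusted p = 0.0070), whereas Ypel1 (3.28 and 4.05 to 3.57 and 3.98 CPM, log2 fold change 0.05, edgeR adjusted p = 0.92) and Ypel4 (0.825 and 1.24 to 1.38 and 1.41 CPM, log2 fold change 0.44, edgeR adjusted p = 0.44) were not called. None of the 5 was called at day 3, where Ypel5 had a log2 fold change of 0.26. The call for Ypel2 was kept in 1 of the 4 fits that left out a library, and those for Ypel3 and Ypel5 in 3.

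Below the 5 CPM floor, Scn7a, a sodium-sensing channel of glia and muscle, rose from 0.233 and 0.197 to 8.12 and 6.82 CPM (log2 fold change 5.09, edgeR adjusted p = 0.012) and Aldh1a7, an aldehyde dehydrogenase, from 0.317 and 0.563 to 4.48 and 8.59 CPM (log2 fold change 3.91, edgeR adjusted p = 0.0012). The call for Aldh1a7 was kept without each library in turn and that for Scn7a in 1 of these fits, with log2 fold changes of 4.96 to 5.22. At day 3 Aldh1a7 was called up again (4.13), and Scn7a was not (1.16). A run of neighbours on chromosome 16, 17544558 to 17577893, held 3 tested genes, 4930451C15Rik, P2rx6 and Slc7a4, and all 3 rose. The called genes set the ends of this span too. Slc7a4 lies inside the span of P2rx6, so that these are not separate observations without strand.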
